A study of Mus musculus with 8 samples.

Results

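Solute carriers are membrane proteins that move sugars, amino acids, ions, metals, vitamins and metabolites across the plasma membrane and the membranes of organelles. Some let a substrate run down its own gradient, others couple it to sodium or protons, and several need a partner protein to reach the membrane. In the peri-implantation mouse embryo the epiblast takes up glucose through facilitative carriers, while the visceral endoderm that surrounds it is an absorptive epithelium known for carriers of nutrients and metals. The genes described here are the expressed solute carriers of isolated embryonic day 5.5 epiblasts: symbols that begin with Slc followed by a family number, letters and a member number, with at least 5 counts per 1000000 counts of the column total in 2 or more columns. Of the 52636 gene identifiers counted, 377 had such a symbol, and 183 of these reached the level. The level in these libraries therefore chose the genes, and their levels are given as a description. Slc13a4 and Slc7a9 were singled out because of an earlier result on these libraries, so their values are also a description.

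All 8 libraries came from embryos with the genotype Sox2Cre;CRAFR26, in which 4OHT (4-hydroxytamoxifen) is used to switch on the kinase cRAF and thereby ERK. Sox2Cre is a Cre transgene active in the epiblast lineage. Embryos of 2 clones, 4 and 8, were cultured with 250 nM 4OHT or with the ethanol vehicle, each labelled as a 4 h treatment, although the vehicle libraries also carry the time label 0 h. If these were collected before the culture, 4OHT and time in culture cannot be told apart. Extraembryonic layers were dissected off and 10 epiblasts were pooled per library, with 7 ng of RNA as input. There were 4 groups of 2 libraries: vehicle clone 4, 4OHT clone 4, vehicle clone 8 and 4OHT clone 8. The labels do not say whether the 2 libraries of a group came from separate cultures or litters, so the p-values below measure only the spread between these libraries. The 2 clones are single clones, and what they derive from is not given in the sources used here.

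The smallest and largest totals were 33341813 and 37960284 counts with vehicle and 56384556 and 72497719 counts with 4OHT, so depth and treatment cannot be told apart in either clone. The solute carriers took 1.15% to 1.63% of the counts. Epiblast markers summed to 4614 to 5773 CPM (counts per 1000000, scaled by TMM) over the 8 libraries. Markers of neighbouring tissues were present in every library. The sum of 20 visceral endoderm markers, all detected everywhere, was 1732 and 1280 CPM in vehicle clone 4, 4314 and 5077 in 4OHT clone 4, 3514 and 3353 in vehicle clone 8, and 1015 and 2406 in 4OHT clone 8. The sum of 14 extraembryonic ectoderm markers, also all detected, was 956 to 1376 CPM in 6 libraries and only 546 and 601 in vehicle clone 8. Blood and decidua markers summed to 5.63 to 26.9 CPM, and 7 of the 8 were at 0 in at least 1 library. A sum of 13 ERK target genes was 1131 and 1104 CPM in vehicle clone 4, 1275 and 1291 in 4OHT clone 4, 747 and 971 in vehicle clone 8, and 1256 and 1764 in 4OHT clone 8.

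The 183 carriers spanned 42 of the 48 families with a matching symbol. The substrate classes follow the family number and not the substrate known for each gene. Grouped by what the families move, mitochondrial carriers contributed 33 of 48 matching genes, carriers of amino acids and peptides 28 of 72, metals 24 of 33, inorganic ions and protons 24 of 59, and nucleotide sugars and acetyl-CoA 22 of 28. Vitamins, nucleosides, choline, lipids and heme contributed 19 of 31, sugars 16 of 35, organic ions, bile acids and vesicular cargo 9 of 51, and carboxylates and sulfate 8 of 20. In 146 genes the level held in all 8 columns and in 37 it held in 2 to 7. Slc17a9, Slc22a17 and Slc4a3 passed only through the 4OHT clone 8 libraries, Slc5a11 only through 4OHT clone 4, Slc25a16 only through vehicle clone 8 and Slc2a4rg-ps only through 4OHT libraries, so a difference in these 6 genes was built into the choice. Slc2a2 and Slc34a2 passed only through both 4OHT clone 4 libraries and a vehicle clone 8 library, and Slc7a9 only through both libraries of each of these groups. These groups count the same way when the responses of the clones are subtracted below, so part of that difference was built in too. The same holds in the other direction for Slc16a5, which passed only through a vehicle clone 4 library and a 4OHT clone 8 library. The genes nearest the limit from above were Slc5a11 (second-highest column 5.06 CPM), Slc16a5 (5.19) and Slc22a17 (5.43), and from below Slc9a7 (4.87), Slc22a7 (4.75) and Slc25a29 (4.74). The symbols of 5 run on past the pattern and name associated genes, not carriers: Slc2a4rg-ps, Slc4a1ap, Slc7a6os, Slc9a3r1 and Slc9a3r2. They meet the rule and are counted among the 183 carriers and in their classes throughout.

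Levels between genes were compared per kilobase of exon, as the mean of 8 libraries in CPM per kilobase. They ran from 0.42 for Slc4a3 to 1176 for Slc25a5, with a median of 4.27, and the top 10 genes held 64.4% of the summed level. The adenine nucleotide carriers that exchange ADP for ATP across the inner mitochondrial membrane led, with Slc25a5 at 1176 and Slc25a4 at 256. Slc25a5 has near-identical processed copies in the mouse genome and how multi-mapping reads were treated is not given in the sources used here, so its level is uncertain. The scaffold gene Slc9a3r1, which tethers ion exchangers to the cytoskeleton and is not itself a carrier, stood at 275. Slc7a3, a carrier of arginine and lysine, followed at 186, ahead of the mitochondrial carrier Slc25a39 (142), the phosphate carrier Slc25a3 (132) and Slc3a2 (131), the heavy chain shared by several amino acid exchangers. The glucose carriers Slc2a1 and Slc2a3 stood at 112 and 107, and the lactate carriers Slc16a3 and Slc16a1 at 99.7 and 91.7. Neighbours in this order from Slc25a39 to Slc16a1 overlapped in their group means: Slc2a3, for example, had group means of 71.9 to 204 and Slc2a1 of 77.7 to 138.

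**Figure D1:**
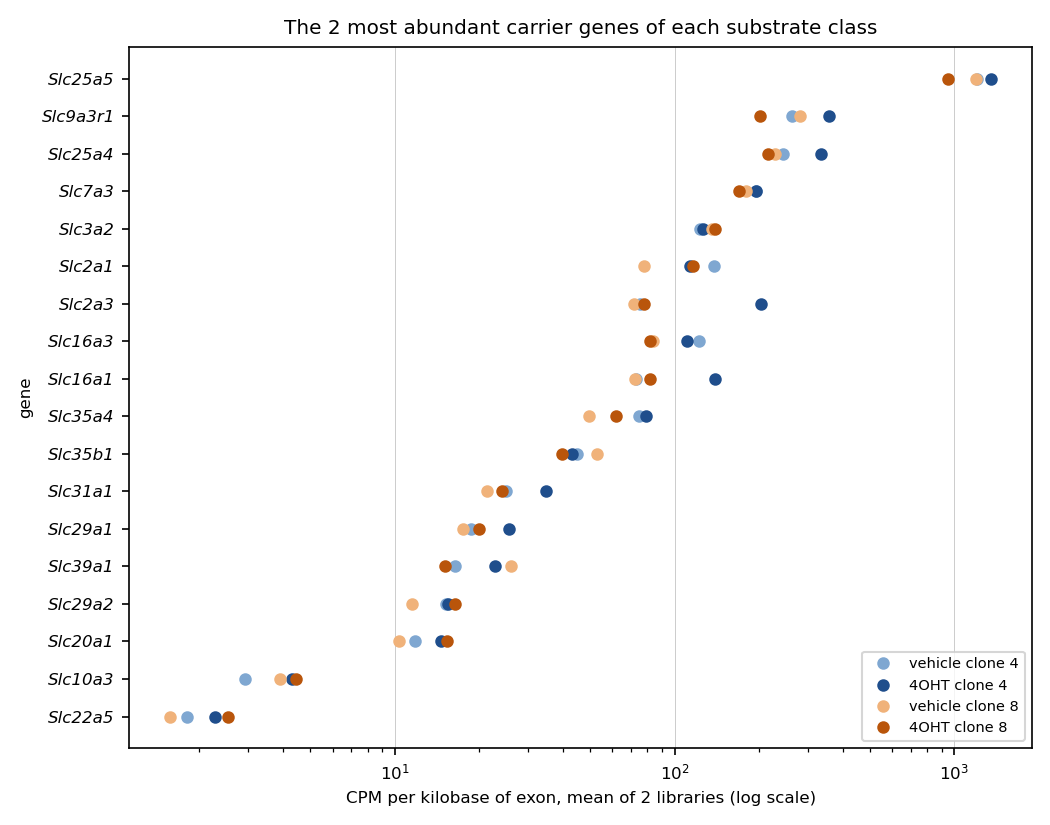
Level of the 2 most abundant carrier genes of each of the 9 substrate classes, in CPM per kilobase of exon on a log axis; each point is the mean of 2 libraries, colored by group. Slc25a5 lies at the top with 950 to 1350 CPM per kilobase by group, and Slc2a3 has 1 group, 4OHT clone 4, at 204 with the other 3 between 71.9 and 77.9.

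In 4 genes the libraries stood in the same order: both 4OHT clone 4 libraries highest, both vehicle clone 8 libraries next and the other 4 lowest. They were Slc13a4, Slc7a9, Slc2a2 and Slc39a5, which is 2.19% of the 183 carriers beside 1.40% of all genes at the same level and 1.05% of the 18321 genes tested. As Slc13a4 and Slc7a9 were singled out beforehand, nothing is read from that share, and without them it was 2 of 181 (1.1%). The sum of the visceral endoderm markers has this order too. Single markers were divided: Apoe, Amn and Cubn, for example, share the order, while Ttr, Afp, Rbp4 and Dab2 do not. Because these 4 genes lead the comparisons below, 250 bases upstream of a start site of each are shown (RefSeq, GRCm38.p6; all read 5′ to 3′ on the strand of the gene), at chr6:35308127-35308376 (minus strand, Slc13a4), chr7:35448842-35449091 (plus, Slc7a9), chr3:28697653-28697902 (plus, Slc2a2) and chr10:128400467-128400716 (minus, Slc39a5). Capitals mark a GATA match (AGATAA on either strand, 2 in Slc7a9) or an HNF1 half-site (GTTAAT on either strand, 1 in Slc39a5). The table lists another start site for Slc7a9 and for Slc39a5, whose windows (chr7:35448929-35449178 and chr10:128401225-128401474) held neither match, and the windows with a match are the ones shown. The Slc7a9 window shown is upstream of a RefSeq start site but lies inside the gene span given below.
Slc13a4: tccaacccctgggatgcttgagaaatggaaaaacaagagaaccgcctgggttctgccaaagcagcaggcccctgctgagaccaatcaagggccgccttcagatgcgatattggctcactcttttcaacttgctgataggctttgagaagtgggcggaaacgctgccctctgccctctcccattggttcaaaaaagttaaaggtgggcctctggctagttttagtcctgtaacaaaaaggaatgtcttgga
Slc7a9: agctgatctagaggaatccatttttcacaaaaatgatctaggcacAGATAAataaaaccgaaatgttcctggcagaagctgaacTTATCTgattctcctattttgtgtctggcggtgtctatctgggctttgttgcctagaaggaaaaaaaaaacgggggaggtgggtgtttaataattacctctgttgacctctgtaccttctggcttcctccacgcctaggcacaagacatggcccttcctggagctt
Slc2a2: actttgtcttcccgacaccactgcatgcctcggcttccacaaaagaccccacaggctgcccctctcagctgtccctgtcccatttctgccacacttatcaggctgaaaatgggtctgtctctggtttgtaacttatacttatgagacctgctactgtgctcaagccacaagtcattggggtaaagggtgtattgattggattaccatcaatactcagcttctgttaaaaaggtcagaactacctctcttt
Slc39a5: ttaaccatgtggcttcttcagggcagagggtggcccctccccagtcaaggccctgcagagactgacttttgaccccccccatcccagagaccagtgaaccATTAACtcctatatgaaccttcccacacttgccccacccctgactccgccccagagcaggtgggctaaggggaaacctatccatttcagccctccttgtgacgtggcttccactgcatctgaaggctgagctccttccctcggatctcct
A promoter was found for 139 of the 183 carriers in the RefSeq table. The shares here count matches over the whole promoter sequence of every start site of a gene, not only the 250 bases shown. AGATAA lay in such a sequence of 9.35% of these carriers and of 12.7% of all 27025 genes, and GTTAAT in 4.32% and 8.24%. The AP-1 letters TGANTCA were in 4.32% of carriers and 8.97% of all genes, and in none of the 4 sequences shown. The loose frame of the serum response element was in 93.5% and 75.1%, and the stricter CArG box in 0.719% and 1.81%. HNF4 letters (CAAAGTCCA) were in 0.719% and 0.555%, the composite site of ATF4 (TGATGNAAT) in 0% and 1.08%, and the full HNF1 site in 0% and 0.0111%. Each was searched on both strands. A match describes the letters and is no evidence of binding.

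Slc13a4, a sodium-coupled sulfate carrier of chromosome 6 (chr6:35267957-35308131, minus strand, GRCm38), stood at 8.91 and 7.11 CPM in vehicle clone 4, 39.8 and 43.4 in 4OHT clone 4, 18.2 and 16.8 in vehicle clone 8, and 4.59 and 7.87 in 4OHT clone 8. Slc7a9, the light chain of the cystine and dibasic amino acid exchanger (chr7:35448796-35466036, plus strand), stood at 5 and 5.09 CPM in vehicle clone 4, 17.2 and 20.3 in 4OHT clone 4, 10.8 and 9.1 in vehicle clone 8, and 4.25 and 3.27 in 4OHT clone 8. By column total, which the choice of genes used, Slc7a9 lay under 5 CPM in vehicle clone 4 and 4OHT clone 8. In both genes the 4OHT libraries were above the vehicle libraries in clone 4 and below them in clone 8, without overlap. The log2 change was 2.38 ± 0.27 (SE) in clone 4 and -1.49 ± 0.26 in clone 8 for Slc13a4, and 1.89 ± 0.23 and -1.40 ± 0.23 for Slc7a9. Slc3a1, the heavy chain that Slc7a9 pairs with, was not among the expressed carriers and lay between 0 and 0.119 CPM. Slc3a2, the heavy chain of other light chains, lay between 411 and 558 CPM in all 8 libraries.

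In clone 4, 4OHT libraries were compared with vehicle libraries by edgeR's quasi-likelihood test, with p-values adjusted over all 18321 genes. Slc13a4 and Slc7a9 were the 2 carriers past an adjusted p of 0.05, both higher, which is 1.09% of the carriers beside 0.0382% of all genes tested and 0.0665% of genes at the same level. Since both were singled out from this contrast, nothing is read from that count. It was 0 when any 1 vehicle library or 4OHT clone 4 library was left out, 13 without either 4OHT clone 8 library, and 12 when the 4 clone 4 libraries were fitted alone. DESeq2 called 17, all higher and both genes among them, beside 3.12% of the tested genes it gave an adjusted p (2.59% higher) and 3.81% of genes at the same level (3.14% higher). Of the 183 carriers 82 had both 4OHT libraries above both vehicle libraries and 18 had both below, beside 27.2% and 25.6% of genes at the same level and 23.7% and 23.8% of all genes tested. The median log2 change was 0.12 over the carriers and -0.005 over all genes tested. In this contrast all 20 visceral endoderm markers had positive log2 changes with a median of 1.79. By edgeR 0 of them were called, 18 had an unadjusted p under 0.05, and DESeq2 called 10 higher. Fewer cells of a type and less RNA per cell cannot be told apart in such bulk libraries. The part of visceral endoderm cells in the carriers' values was not tested. Of the 13 ERK target genes edgeR called 0 in clone 4 (median log2 change 0.15, 9 positive) and DESeq2 called 2 higher.

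Several nutrient carriers had high values in 4OHT clone 4 and did not pass the test. Slc2a3, a high-affinity glucose carrier, stood at 503 and 591 CPM in vehicle clone 4, 1153 and 1807 in 4OHT clone 4, 484 and 558 in vehicle clone 8, and 406 and 723 in 4OHT clone 8. Both 4OHT clone 4 libraries lay above the other 6, with a log2 change of 1.44 ± 0.27 in clone 4 (adjusted p = 0.0932, edgeR) and 0.12 ± 0.27 in clone 8. Slc2a2, the low-affinity glucose carrier of liver and intestine, changed by 2.97 ± 0.58 in clone 4 (adjusted p = 0.0942). The zinc and manganese importer Slc39a8 stood at 19.7 and 11.6 CPM in vehicle clone 4, 56 and 70 in 4OHT clone 4, 30.3 and 33.4 in vehicle clone 8, and 13 and 33.7 in 4OHT clone 8. Its log2 change in clone 4 was 2.01 ± 0.41 (adjusted p = 0.11). The lactate carrier Slc16a1 stood at 380 and 266 CPM in vehicle clone 4, 627 and 610 in 4OHT clone 4, 289 and 352 in vehicle clone 8, and 254 and 468 in 4OHT clone 8, with a log2 change of 0.94 ± 0.26 in clone 4 (adjusted p = 0.246). The iron exporter Slc40a1 ranged from 82.9 to 84.1 CPM in vehicle clone 4 and from 140 to 170 in 4OHT clone 4 (log2 change 0.89 ± 0.28, adjusted p = 0.294). Slc16a3, the other main lactate carrier, did not share this, with a log2 change of -0.15 ± 0.11.

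Among substrate classes in clone 4, the median log2 change was highest for carboxylates and sulfate (0.64 over 8 genes), then metals (0.40 over 24), organic ions (0.33 over 9) and inorganic ions (0.31 over 24). It was 0.04 for mitochondrial carriers and 0.05 for amino acid carriers. The summed level of the sugar carriers was 1161 and 1302 CPM in vehicle clone 4 and 1753 and 2449 in 4OHT clone 4, and Slc2a3 alone accounted for 1153 and 1807 of the latter.

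**Figure D2:**
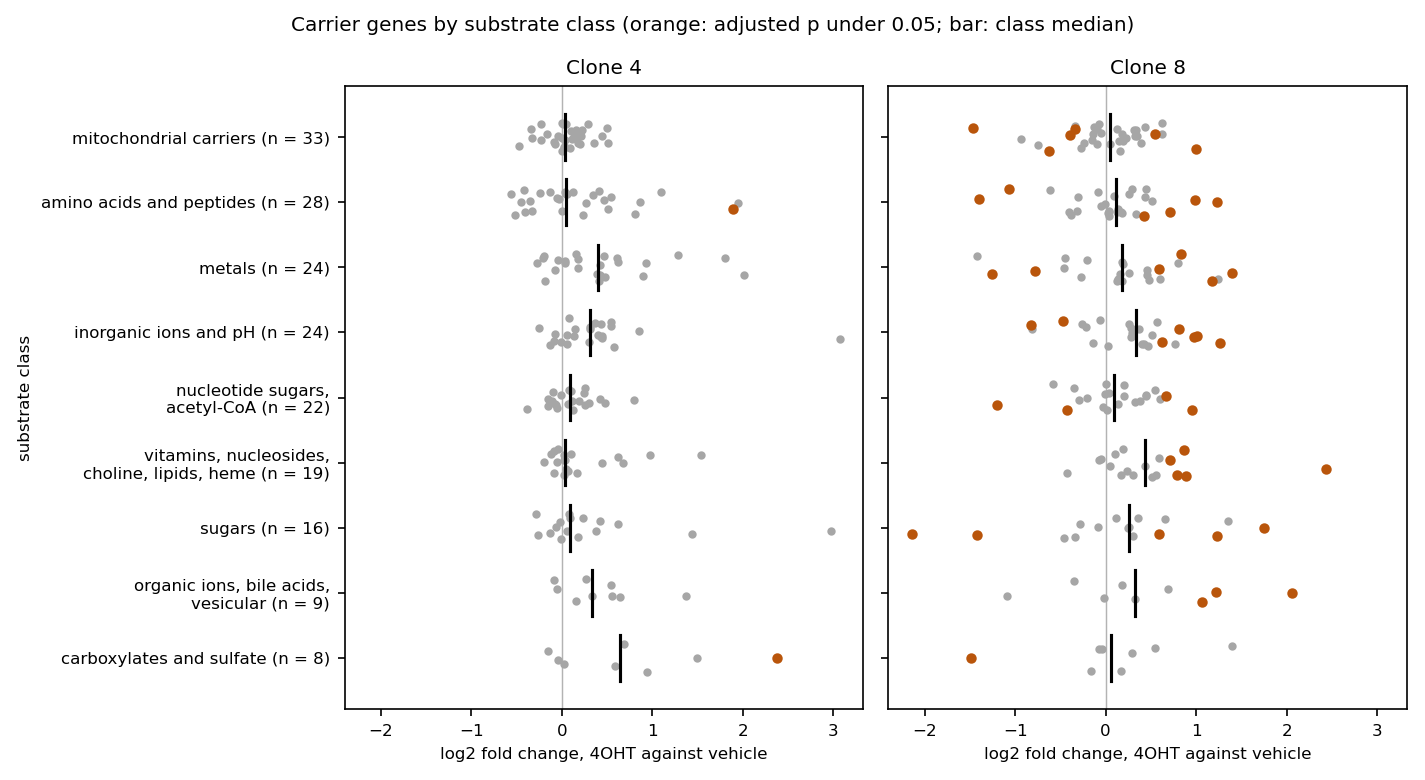
Log2 change with 4OHT for each of the 183 carriers, by substrate class (rows), in clone 4 (left) and clone 8 (right); black bars are class medians and orange points have an adjusted p under 0.05. Clone 4 has 2 orange points, Slc13a4 and Slc7a9, and clone 8 has 43, on both sides of 0.

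In clone 8, 43 carriers were called: 28 rose and 15 fell with 4OHT. This was 23.5% of the carriers, beside 16.6% of all genes tested (8% higher and 8.6% lower) and 25.5% of genes at the same level, so the share was near that of other genes expressed at this level. The median log2 change was 0.18 over the carriers and 0.07 over all genes tested. With library totals in place of TMM, which moves the median of all genes by 0.12, 36 rose and 10 fell. The count was 0 without vehicle clone 8 replicate 1 and also when the 4 clone 8 libraries were fitted alone, and without vehicle clone 4 replicate 1 or 2 it was 24. In this contrast 11 of 14 extraembryonic ectoderm markers were called higher (median 1.63) and 6 of 20 visceral endoderm markers lower (median -0.996), and their part in the carriers' values was not tested. Of the 13 ERK target genes 6 were called higher and 1 lower.

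Amino acid carriers that rose in clone 8 included Slc38a4, a sodium-coupled carrier of neutral amino acids that is imprinted in the mouse. It stood at 127 and 116 CPM in vehicle clone 4, 122 and 113 in 4OHT clone 4, 44.9 and 57.4 in vehicle clone 8, and 120 and 119 in 4OHT clone 8. The 2 vehicle clone 8 libraries were the lowest of the 8 and the other 6 lay within 113 to 127 CPM. The log2 change in clone 8 was 1.23 ± 0.14 (adjusted p = 0.00699, edgeR). The related Slc38a2, which cells raise under amino acid shortage, stood at 410 and 425 CPM in vehicle clone 4, 316 and 266 in 4OHT clone 4, 274 and 296 in vehicle clone 8, and 370 and 565 in 4OHT clone 8 and rose by 0.72 ± 0.18 (adjusted p = 0.0299). Without 4OHT clone 8 replicate 2 this was 0.37. The glutamine carrier Slc1a5 rose by 0.99 ± 0.26 (adjusted p = 0.0338), from 106 and 149 to 211 and 297 CPM. The fourth that rose, Slc7a6, is named after its value was seen (0.42 ± 0.12, adjusted p = 0.0382). Slc7a9 and the creatine carrier Slc6a8 were lower, the latter with a log2 change of -1.06 ± 0.24 (adjusted p = 0.02). The leucine carrier Slc7a5 (-0.61 ± 0.23, adjusted p = 0.0959), the cystine carrier Slc7a11 (0.43 ± 0.43, adjusted p = 0.518) and the glutamine carrier Slc38a1 (0.13 ± 0.19, adjusted p = 0.681) did not pass.

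Sugar carriers moved both ways in clone 8, with 3 of 16 called higher and 2 lower. This was 31.2% called, beside 25.5% of genes at the same level. Slc2a1, the main glucose carrier of many embryonic cells, stood at 459 and 512 CPM in vehicle clone 4, 387 and 408 in 4OHT clone 4, 274 and 270 in vehicle clone 8, and 387 and 432 in 4OHT clone 8. The 2 vehicle clone 8 libraries were below the other 6, and the gene rose by 0.59 ± 0.11 in clone 8 (adjusted p = 0.0121). The sodium and myo-inositol carrier Slc5a3, whose exons share 1.46% of their length with Mrps6 on the same strand, rose by 1.75 ± 0.36 (adjusted p = 0.0158). Its levels were 6.13 and 8.42 CPM in vehicle clone 4, 4.99 and 9.31 in 4OHT clone 4, 2.93 and 3.74 in vehicle clone 8, and 13.2 and 9.21 in 4OHT clone 8. Slc45a3, whose exons share 13.5% of their length with a transcript on the same strand, rose by 1.23 ± 0.28 (adjusted p = 0.022), and by 0.79 without 4OHT clone 8 replicate 2. Slc45a4, of the same proton-coupled family, stood at 5.11 and 4.79 CPM in vehicle clone 4, 6.46 and 6.38 in 4OHT clone 4, 15.3 and 13.4 in vehicle clone 8, and 5.78 and 4.96 in 4OHT clone 8. It fell by 1.42 ± 0.22 (adjusted p = 0.00917), with vehicle clone 8 above the other 6 libraries. Slc2a2 fell by 2.14 ± 0.56 (adjusted p = 0.0327), and this was -1.39 without vehicle clone 8 replicate 1.

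Of 24 metal carriers 4 rose and 2 fell in clone 8, which is 25% beside 25.5% of genes at the same level. Slc30a2, which loads zinc into vesicles, rose by 1.39 ± 0.27 (adjusted p = 0.0137), from 7.08 and 5.06 to 16.4 and 15.5 CPM. The others that rose, Slc39a10, Slc30a9 and Slc41a1, are named after their values were seen. Slc30a1, the zinc exporter of the plasma membrane, stood at 4.95 and 3.3 CPM in vehicle clone 4, 8.34 and 7.39 in 4OHT clone 4, 16 and 11.7 in vehicle clone 8, and 5.33 and 6.32 in 4OHT clone 8 and fell by 1.25 ± 0.27 (adjusted p = 0.0188). The zinc importer Slc39a1 stood at 39.9 and 37.8 CPM in vehicle clone 4, 48.8 and 58.7 in 4OHT clone 4, 66.1 and 56.5 in vehicle clone 8, and 40.9 and 30.5 in 4OHT clone 8 and fell by 0.78 ± 0.18 (adjusted p = 0.0224). An exporter and an importer of zinc thus both had their highest group mean in vehicle clone 8. Exons of Slc30a1 share 8.92% of their length with a gene on the opposite strand. The copper importer Slc31a1 had a log2 change of 0.18 ± 0.18 in clone 8 and 0.48 ± 0.18 in clone 4, neither past the test.

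Among vitamin, nucleoside, choline and heme carriers 5 of 19 were called in clone 8, each higher, and the class median was 0.44. The share of 26.3% stands beside 25.5% of genes at the same level called in either direction. Of those 10525 genes 1251 were called higher and 1436 lower, so the share called higher alone was smaller than 25.5%. Slc46a3, a lysosomal carrier, had the largest rise of the 183 genes, 2.44 ± 0.54 (adjusted p = 0.0198). It stood at 7.2 and 11.4 CPM in vehicle clone 4, 19.3 and 17.3 in 4OHT clone 4, 5.85 and 9.64 in vehicle clone 8, and 17.8 and 66 in 4OHT clone 8. The value of 66 stands apart, and without that library the log2 change was 1.20. The other 4, named after their values were seen, were the thiamine carrier Slc19a2 (0.87 ± 0.19), the ascorbate carrier Slc23a2 (0.71 ± 0.21), the choline carrier Slc44a2 (0.89 ± 0.23) and the folate carrier Slc46a1 (0.79 ± 0.16). Vehicle clone 8 held the 2 lowest libraries in all 4 of these. The nucleoside carriers Slc29a1 (0.19 ± 0.16) and Slc29a2 (0.51 ± 0.17) did not pass.

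Inorganic ion carriers had 5 of 24 higher and 2 lower in clone 8, the latter Slc12a2 and the scaffold gene Slc9a3r1. This was 29.2% called, beside 25.5% of genes at the same level. The largest rise was in Slc4a11, of the bicarbonate carrier family, at 1.26 ± 0.28 (adjusted p = 0.02), from 3.87 and 6.18 to 11.1 and 13 CPM. Named after their values were seen, the potassium-chloride carriers Slc12a4 and Slc12a7 were higher by 0.98 ± 0.24 and 1.01 ± 0.25, while the sodium-potassium-chloride carrier Slc12a2 fell by 0.83 ± 0.21. Without vehicle clone 8 replicate 1 the first 2 were at 0.62 and 0.63. Of 9 organic ion carriers 3 were called, each higher, which is 33.3% beside the same 25.5%, a share that counts both directions. Slc22a17, the lipocalin receptor, rose by 2.06 ± 0.38 from 1.67 and 1.84 to 9.40 and 5.21 CPM, and the vesicular nucleotide carrier Slc17a9 by 1.22 ± 0.32, both genes that entered the set through these 4OHT libraries alone. In the carboxylate class only Slc13a4 was called, while Slc16a1 (0.17 ± 0.26) and Slc16a3 (-0.04 ± 0.11) were not.

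Mitochondrial carriers had 2 of 33 higher and 4 lower in clone 8, which is 18.2% beside 25.5% of genes at the same level. Slc25a5 stood at 1961 and 2000 CPM in vehicle clone 4, 2182 and 2266 in 4OHT clone 4, 1966 and 1977 in vehicle clone 8, and 1637 and 1491 in 4OHT clone 8 and fell by 0.33 ± 0.09 (adjusted p = 0.0351). Its paralogue Slc25a4 did not pass (-0.09 ± 0.12). Slc25a16 fell by 1.47 ± 0.31, from 9.45 and 6.96 to 3.13 and 2.80 CPM, having entered the set through vehicle clone 8 alone. The phosphate carrier Slc25a3 (-0.39 ± 0.11) and the dicarboxylate carrier Slc25a10 (-0.63 ± 0.13) also fell, and Slc25a32 and Slc25a40 rose. These 4 genes are named after their values were seen. The nucleotide sugar and acetyl-CoA class, set by family number and not by each gene's substrate, had 2 of 22 higher and 2 lower, also 18.2%. The lower 2 were Slc35g1 (-1.20 ± 0.23, adjusted p = 0.013, edgeR) and the endoplasmic reticulum carrier Slc35b1 (-0.42 ± 0.12, adjusted p = 0.0457).

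The clones were then compared directly, as the response in clone 8 minus that in clone 4. The 2 responses share no library. Of the 183 carriers 14 passed, 11 with the lower and 3 with the higher response in clone 8, which is 7.65% beside 2.83% of all genes tested (1.08% higher and 1.75% lower) and 4.21% of genes at the same level. The 14 include Slc13a4 and Slc7a9, which were singled out beforehand, and without them 12 of 181 passed (6.63%). All 14 had opposite signs in the 2 clones. A choice by large difference favors opposite signs, so nothing is read from this. For Slc38a4 the clone 4 value was only -0.05 ± 0.14. Over all 183, 79 were higher with 4OHT in both clones, 18 lower in both, 46 higher in clone 4 and lower in clone 8, and 40 the reverse, so 53.01% kept their sign. In the same comparison 10 of 20 visceral endoderm markers were called lower (median -2.92) and 6 of 14 extraembryonic ectoderm markers higher (median 1.27), and their part in the 14 genes was not tested. The count was 0 without vehicle clone 8 replicate 1 or either 4OHT clone 4 library, 2 without either vehicle clone 4 library, 9 without vehicle clone 8 replicate 2, and 22 or 26 when a 4OHT clone 8 library (replicate 1 or 2) was dropped.

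**Figure D3:**
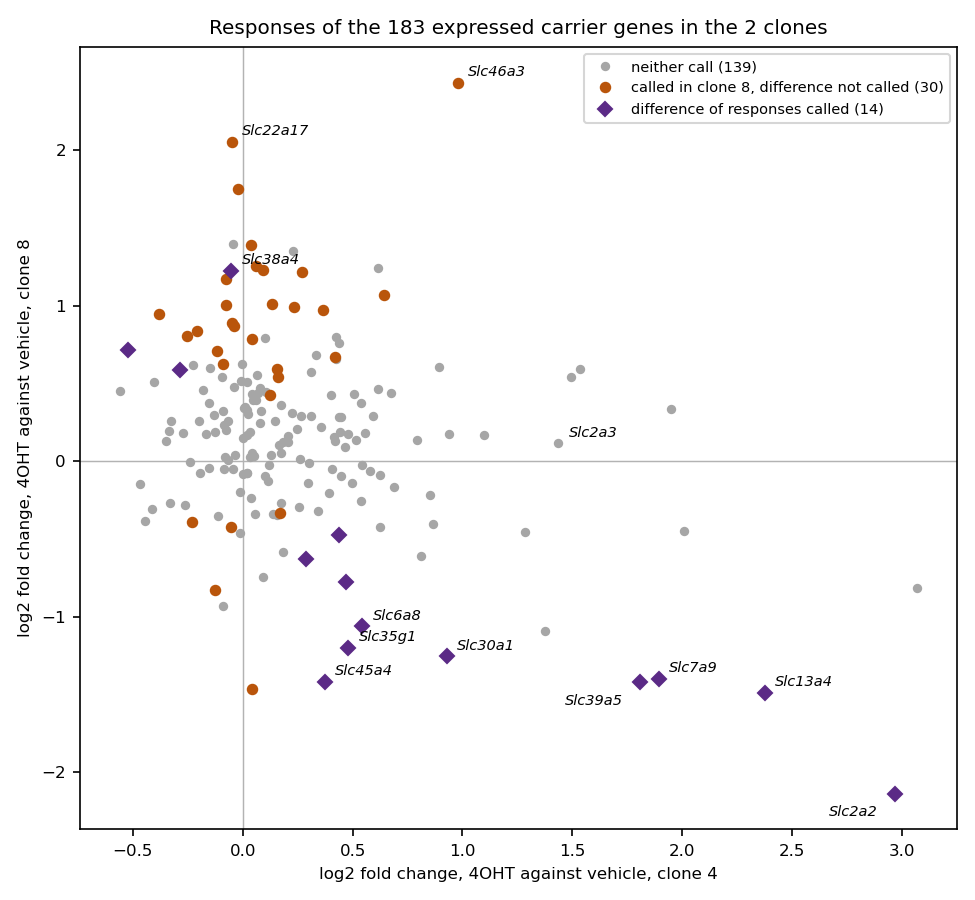
Log2 change with 4OHT in clone 4 (horizontal) and clone 8 (vertical) for the 183 carriers; purple diamonds mark the 14 genes whose responses differed between the clones and orange points the 30 others called in clone 8. The diamonds lie in the quadrants of opposite sign, with Slc2a2 at 2.97 and -2.14 the farthest out.

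The largest difference was that of Slc2a2, -5.11 ± 0.80 (adjusted p = 0.0269, edgeR). Its levels were 0.936 and 2.32 CPM in vehicle clone 4, 11.3 and 14.1 in 4OHT clone 4, 8.25 and 3.43 in vehicle clone 8, and 0.802 and 1.85 in 4OHT clone 8, so it reached 5 CPM in 3 libraries only. It entered the set through these libraries of the 2 groups where it was high, so part of its difference was built into the choice. The zinc importer Slc39a5, a gene of intestine, pancreas and yolk sac, stood at 9.36 and 6.49 CPM in vehicle clone 4, 28.8 and 26.8 in 4OHT clone 4, 20.4 and 17.2 in vehicle clone 8, and 3.26 and 10.8 in 4OHT clone 8. Its responses differed by -3.23 ± 0.64 (adjusted p = 0.0418). Slc13a4 and Slc7a9 differed by -3.87 ± 0.37 and -3.29 ± 0.33, as a description. Slc7a9 entered the set through 4OHT clone 4 and vehicle clone 8 alone, so part of its difference was built in as well. In these 4 genes 4OHT clone 4 was the highest group and vehicle clone 8 the second, the order given above.

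In another 4 of the 14 genes both vehicle clone 8 libraries lay above the other 6: Slc30a1 (-2.18 ± 0.39, adjusted p = 0.0331), Slc45a4 (-1.79 ± 0.30, adjusted p = 0.0313), Slc35g1 (-1.68 ± 0.32, adjusted p = 0.0386) and Slc6a8 (-1.61 ± 0.33, adjusted p = 0.0451). Slc35g1 stood at 7.41 and 5.33 CPM in vehicle clone 4, 8.99 and 8.78 in 4OHT clone 4, 13.1 and 12.5 in vehicle clone 8, and 5.46 and 5.69 in 4OHT clone 8. Slc6a8 stood at 4.52 and 4.91 CPM in vehicle clone 4, 6.4 and 7.35 in 4OHT clone 4, 12.2 and 9.88 in vehicle clone 8, and 4.72 and 5.82 in 4OHT clone 8. Across all carriers 11 had both vehicle clone 8 libraries above the other 6 (6.01%, beside 20% of genes at the same level and 15.4% of all tested) and 44 had both below (24%, beside 22.1% and 15.3%).

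The remaining 6 differences were smaller. Slc39a1 differed by -1.25 ± 0.25 (adjusted p = 0.0443) and Slc25a10 by -0.92 ± 0.19 (adjusted p = 0.045). Slc25a10 stood at 52.3 and 49 CPM in vehicle clone 4, 64.2 and 59.3 in 4OHT clone 4, 58.3 and 66.3 in vehicle clone 8, and 40.7 and 39.7 in 4OHT clone 8, with 4OHT clone 8 below the other 6 libraries. Part of it (6.6% of exon length) lies opposite an antisense gene, and whether counting used strand is not given in the sources used here. Slc9a3r1 stood at 530 and 483 CPM in vehicle clone 4, 668 and 702 in 4OHT clone 4, 511 and 567 in vehicle clone 8, and 378 and 399 in 4OHT clone 8 and differed by -0.91 ± 0.15 (adjusted p = 0.028). The 3 genes with the higher response in clone 8 were Slc38a4 (1.28 ± 0.20, adjusted p = 0.0262), Slc38a2 (1.24 ± 0.26, adjusted p = 0.0451) and Slc2a1 (0.88 ± 0.15, adjusted p = 0.0324). These carry amino acids and glucose, and in Slc38a4 and Slc2a1 vehicle clone 8 held the 2 lowest libraries.

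**Figure D4:**
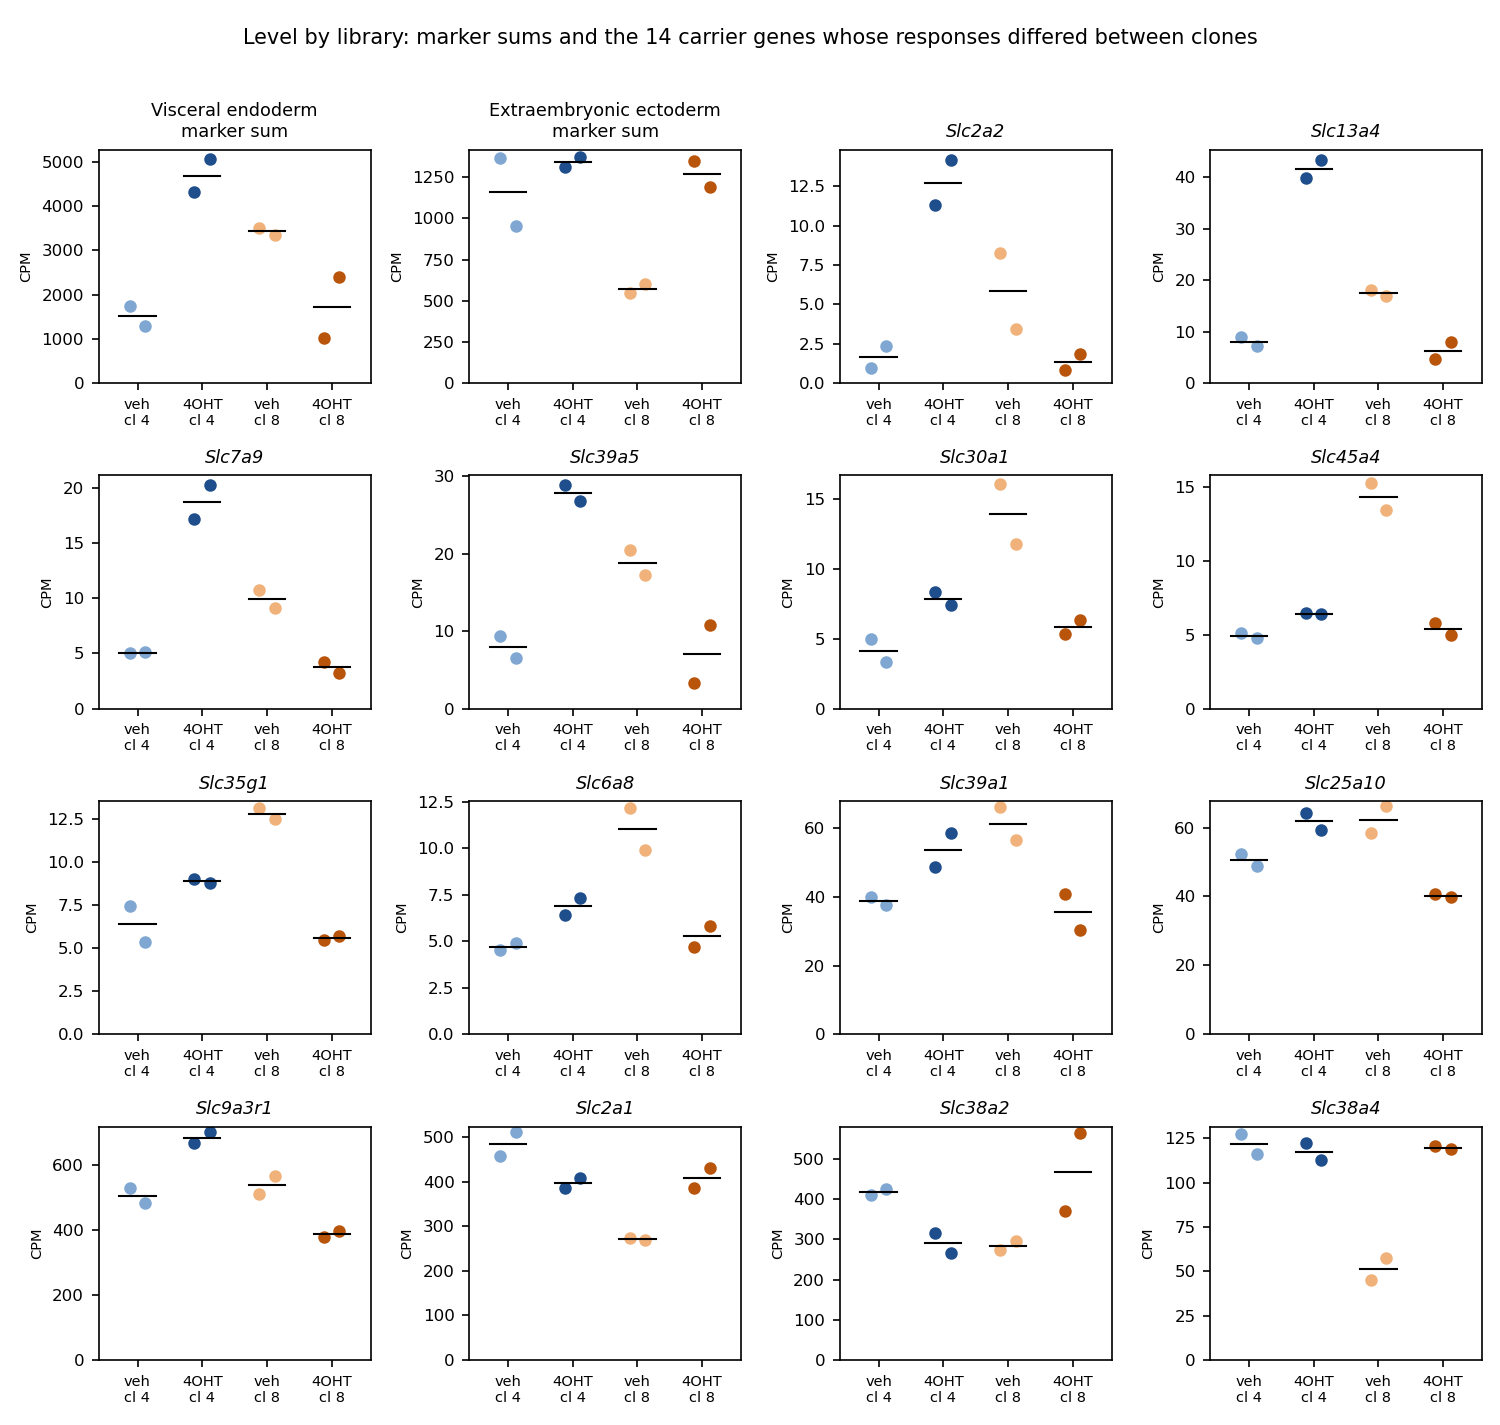
CPM in each library (points, 2 per group) and group mean (bars) for the summed visceral endoderm and extraembryonic ectoderm markers and for the 14 genes whose responses differed between clones; every vertical axis starts at 0. Slc2a2, Slc13a4, Slc7a9 and Slc39a5 have 4OHT clone 4 highest and vehicle clone 8 second, as the visceral endoderm sum does, though not every marker in it. Slc38a4 is low in vehicle clone 8 alone (44.9 and 57.4 CPM).

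The starting levels of the clones were compared in the vehicle libraries, which both responses also use. Here 25 carriers differed, 12 higher and 13 lower in clone 8, which is 13.7% beside 8.37% of all genes tested (4.06% higher and 4.31% lower) and 13.6% of genes at the same level. The largest were Slc30a1 (1.75 ± 0.28), Slc45a4 (1.54 ± 0.22) and Slc25a16 (1.42 ± 0.31) among the higher, and Slc38a4 (-1.25 ± 0.14), Slc30a2 (-1.23 ± 0.27) and Slc45a3 (-1.22 ± 0.28) among the lower. Slc25a16 entered the set through vehicle clone 8 alone, so its difference here was built into the choice. Slc7a5, the leucine carrier, was also higher in clone 8 (1.26 ± 0.23, adjusted p = 0.0231), at 142 and 94.3 CPM against 57.5 and 41.1. Slc16a3 (-0.55 ± 0.11), Slc2a1 (-0.83 ± 0.11) and Slc35a4 (-0.59 ± 0.15) were lower. The count was 0 without vehicle clone 4 replicate 1 or vehicle clone 8 replicate 1, 1 without vehicle clone 4 replicate 2, 6 or 7 when a 4OHT clone 4 library (replicate 1 or 2) was dropped, 18 without vehicle clone 8 replicate 2, and 38 without either 4OHT clone 8 library. In this comparison 7 of 20 visceral endoderm markers were called higher (median 1.52) and 10 of 14 extraembryonic ectoderm markers lower (median -1.46).

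With 4OHT the clones differed in 3 carriers, all lower in clone 8, which is 1.64% beside 0.202% of all genes tested and 0.323% of genes at the same level. Nothing is read from that share, since 2 of the 3 are the genes singled out beforehand. They were Slc13a4 (-2.74 ± 0.27), Slc7a9 (-2.32 ± 0.23) and Slc9a3r1 (-0.82 ± 0.10, adjusted p = 0.035, edgeR). The count was 0 without either 4OHT clone 4 or either vehicle clone 8 library, and 5 or 17 when a 4OHT clone 8 library (replicate 1 or 2) was dropped. Slc2a2 (-3.26 ± 0.58, adjusted p = 0.0636) and Slc2a3 (-1.39 ± 0.27, adjusted p = 0.0701) were lower in clone 8 without passing. Slc38a4 (0.03 ± 0.14) and Slc2a1 (0.04 ± 0.11) were close to equal. In this comparison all 20 visceral endoderm markers had negative log2 changes (median -1.46). By edgeR 0 of them were called, 15 had an unadjusted p under 0.05 and DESeq2 called 7 lower, and their part in the carriers' values was not tested.

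Averaged over both clones with clone as a term, 0 carriers were called by edgeR, beside 0.00546% of all genes tested and 0.0095% of genes at the same level, and DESeq2 called 8 carriers, beside 6.08% of the tested genes it gave an adjusted p and 7.05% of genes at the same level. An unadjusted p under 0.05 was reached by 39, beside 16.9% of all genes tested and 24.3% of genes at the same level. The median log2 change was 0.20 over the carriers and 0.04 over all genes tested.

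Transport genes whose symbols lie outside the pattern were followed in a list of 31, of which 29 were tested. In clone 4 edgeR called 0, with 11 at an unadjusted p under 0.05, and DESeq2 called 7. Beside these, edgeR called 0.0382% of all genes tested, and DESeq2 3.12% of those it gave an adjusted p. In clone 8 Slco2a1, the prostaglandin carrier (2.12 ± 0.37), and the magnesium carrier Nipa2 (0.62 ± 0.14) rose. Bsg (-0.37 ± 0.10) and Emb (-0.41 ± 0.11), the chaperones of the lactate carriers, fell, as did the mitochondrial protein gene Mtch1 (-1.54 ± 0.27). These 5 of 29 are a share near the 16.6% of all genes tested. The count of 5 became 0 without vehicle clone 8 replicate 1, 2 without either vehicle clone 4 library, and 3 without either 4OHT clone 4 library or 4OHT clone 8 replicate 1. The responses differed between clones in 5 of the 29, beside 2.83% of all genes tested. Slco2a1 (2.5 ± 0.50) was higher in clone 8, and Emb (-0.99 ± 0.16), Cltrn (-3.18 ± 0.61), Slco4c1 (-2.76 ± 0.61) and Pdzk1 (-3.26 ± 0.72) were lower. Cltrn assists amino acid carriers and Pdzk1 is a scaffold of carriers in absorptive epithelia. Pdzk1 was at 5.97 and 4.14 CPM in vehicle clone 4, 22.6 and 30.2 in 4OHT clone 4, 10.6 and 14 in vehicle clone 8, and 2.79 and 10.6 in 4OHT clone 8. This count was 0 when any 1 clone 4 library or vehicle clone 8 replicate 1 was left out, and 1 without vehicle clone 8 replicate 2.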

How the data were processed

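RNA-seq of pooled epiblasts was deposited by the authors as 1 table of raw counts per Ensembl gene for 8 libraries. Per the submitters' processing notes, bcl2fastq 2.19.1 and STAR 2.5.3a were used with the build mm10. The counting program, its annotation and its use of strand are not given in the sources used here. Of 52636 identifiers 52403 were paired with a symbol through the GENCODE M21 annotation, which also gave exon lengths, and 233 were not.

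From these counts CPM of the TMM-scaled library size were computed. The main test was edgeR 4.0.16 (R 4.3.3): filterByExpr with a minimum count of 10, quasi-likelihood fit of 4 groups, or of clone and treatment as additive terms, and Benjamini-Hochberg adjustment over 18321 genes, called at 0.05. DESeq2 1.42.0 was an alternative. The scripts were tested on simulated counts with 200 changed genes. The annotation release of the table is not given, and overlaps between exons come from GENCODE M21.

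The members, lists and comparisons were chosen with earlier results of these data known. Genes were named by rule: Slc13a4 and Slc7a9, the 8 largest called each way in the 2 responses and their difference, the 3 largest called each way elsewhere, the 2 highest per kilobase of each class, and 15 well-known carriers. Motifs for GATA, the HNF1 half-site and the CArG box were added after the first search.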

Additional observations from a re-analysis of the deposited data

Results flagged for a closer look

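The response to 4OHT differed between clone 8 and clone 4 by a direct test of the difference in 14 carrier genes, given here as the log2 response in clone 8 minus that in clone 4 with edgeR's adjusted p. Each rests on 2 libraries per group. Slc13a4 (-3.87, 0.0122) and Slc7a9 (-3.29, 0.0122) were singled out from earlier results of these libraries, so theirs is a description. Slc2a2 (-5.11, 0.0269) and the zinc importer Slc39a5 (-3.23, 0.0418) shared their order of libraries. Slc2a2 and Slc7a9 entered the set only through libraries where they were high, so part of their differences was built into the choice.

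The differences were -2.18 (0.0331) for the zinc exporter Slc30a1, -1.79 (0.0313) for Slc45a4, -1.68 (0.0386) for Slc35g1 and -1.61 (0.0451) for the creatine carrier Slc6a8. They were -1.25 (0.0443) for Slc39a1, -0.92 (0.0450) for Slc25a10 and -0.91 (0.0280) for the scaffold gene Slc9a3r1. They were 1.28 (0.0262) for Slc38a4, 1.24 (0.0451) for Slc38a2 and 0.88 (0.0324) for Slc2a1. With 1 library left out in turn, the call held in 5 of 8 fits for Slc13a4 and Slc7a9 and in 2 or 3 of 8 for the other 12 genes. All 14 kept their sign in every such fit.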

How the results depend on the processing

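Depth limits values near 0 CPM, whose fitted changes depend on the prior count, and the cause of each change below was not tested. The 2 carriers called in clone 4 became 1 with library totals or the robust fit, 23 without the expression filter, 12 with clone 4 alone, 17 with DESeq2, and 0 with a replicate block, at an adjusted p of 0.01 or with genes at the level in all 8 columns. With 1 library left out they ranged from 0 to 13. The 43 called in clone 8 became 0 with clone 8 alone, 2 at 0.01 and 20 with a log2 change of at least 1 (0 to 43 with 1 library left out). The 14 that differed became 40 without the filter, 36 with DESeq2, 0 at 0.01 and 7 with the level in all 8 columns (0 to 26). The 0 of the average over clones became 19 without the filter and 8 with DESeq2 or as the mean of the 2 responses (0 to 0). The 25 between vehicle libraries became 41 without the filter, 43 with DESeq2, 1 at 0.01 and 14 with a log2 change of at least 1 (0 to 38). The 3 between 4OHT libraries became 32 without the filter, 5 with 10 counts in every library, 15 with the legacy option off, 23 with DESeq2, 0 at 0.01 and 1 with the level in all 8 columns (0 to 17).

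For the listed accessory carriers, whose alternatives were chosen after seeing the data, 0 in clone 4 became 7 without the filter or with DESeq2 and 4 with clone 4 alone (0 to 5). The 5 in clone 8 became 3 with library totals, 0 with clone 8 alone or at 0.01, and 2 with a log2 change of at least 1 (0 to 7). The 5 that differed became 3 with library totals, 9 with DESeq2 and 0 at 0.01 (0 to 5).

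Replicate numbers did not pair the libraries: same-numbered libraries correlated in their deviations by 0.09 in clone 4, -0.01 in clone 8, -0.02 among vehicle and -0.03 among 4OHT libraries. With the replicate block the counts were 0, 43, 14, 0, 25 and 3 in the order above. Of 1473 alternatives for single genes 1010 kept direction and call, 458 lost the call and 5 reversed, all in the uncalled average over clones: Slc13a4 was -0.27 and -0.33 without vehicle clone 4 replicate 1 or 2, and Slc7a9 was -0.34 and -0.33 without these and -0.01 without 4OHT clone 4 replicate 2. With 1 library left out they reached 1.23 and 0.85.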

Other observations

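The 194 genes with a matching symbol below the level held 18 with 0 counts in all 8 libraries. Among those tested, 3 had responses that differed between the clones by edgeR: the phosphate carrier Slc34a3 (-3.22 ± 0.57, adjusted p = 0.0331), the noradrenaline carrier Slc6a2 (8.34 ± 1.72, adjusted p = 0.0449) and the creatine carrier Slc16a12 (-11 ± 2.29, adjusted p = 0.0487). Slc34a3 stood at 0.803 and 1.52 CPM in vehicle clone 4, 3.35 and 4.73 in 4OHT clone 4, 2.48 and 2.92 in vehicle clone 8, and 1.11 and 0.918 in 4OHT clone 8, the same order of groups as Slc13a4. Slc6a2 did not exceed 0.786 CPM and Slc16a12 did not exceed 0.301 CPM, with libraries at 0, so their fitted values depend on the prior count. These genes were chosen after their values were seen.

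Slc34a2, a phosphate carrier of epithelia that is among the expressed carriers, had the largest log2 change of the 183 in clone 4, 3.07 ± 0.87, without passing the test (adjusted p = 0.25). It stood at 1.58 and 0.327 CPM in vehicle clone 4 and 8.88 and 7.31 in 4OHT clone 4, and at 1.73 and 5.03 in vehicle clone 8 and 0.626 and 3.2 in 4OHT clone 8. In clone 4 it reached the level through the 4OHT libraries alone, so part of this change was built into the choice. Beside the genes already named, uncalled carriers with a log2 change over 1.5 in clone 4 were the amino acid exchanger Slc7a8 (1.95 ± 0.33, adjusted p = 0.0666) and the ascorbate carrier Slc23a1 (1.54 ± 0.28, adjusted p = 0.083). These values were also chosen after they were seen.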
